A study of Mus musculus with 6 samples.

Results

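The 34 genes described here belong to the network of the tumour suppressor p53 (the product of Trp53), and were chosen by symbol from knowledge of the pathway, as p53 itself, its relatives, its negative regulators and genes that it is known to activate. All 34 were among the 22081 genes of the expression table, and all 34 passed the limit on low values, a mean of at least 5 normalized counts, that 18562 genes passed. RNA-seq was done on satellite cells, the stem cells that reside beside muscle fibres (muscle stem cells, MuSCs), in 3 control libraries (labelled MuSC_WT) and 3 libraries labelled MuSC_Taf4a-KO, called Taf4asKO below. In Taf4asKO mice, part of Taf4a (now Taf4, a subunit of the general transcription factor TFIID) was deleted by a Cre recombinase that is fused to a tamoxifen-responsive receptor and expressed from Pax7, a gene active in MuSCs, so that both alleles of Taf4a flox/flox were targeted in these cells after tamoxifen. Control mice for such work were, by the study's methods, Taf4a flox/flox littermates with or without the Cre allele; which of these gave the control libraries, and whether they received tamoxifen, is not given in the sources used here. Both groups were adult C57BL/6 mice, their cells were sorted by flow cytometry without culture, and each library was made from 10 ng of total RNA. The comparison asks how the level of each of these RNAs differed between MuSCs with and without Taf4a.

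p53 is a transcription factor that is kept at a low level by the ubiquitin ligase Mdm2 and its partner Mdm4, and that is stabilized when DNA is damaged or ribosomes or transcription are disturbed. It then binds pairs of a short DNA motif and activates genes that halt the cell cycle, repair DNA, alter metabolism or start apoptosis, and also genes such as Mdm2 that switch p53 off again. In MuSCs, p53 is known for its part in the balance between quiescence, cell cycle entry and cell death. Much of its control is on the protein, so the level of Trp53 RNA is no measure of p53 activity.

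The 6 libraries summed to between 12338676 and 14551732 normalized counts. The value of Taf4, which covers all of its exons and not only those deleted, was 613, 534 and 478 in the control libraries and 631, 565 and 574 in the libraries labelled Taf4asKO (log2 fold change 0.13, 95% confidence interval -0.14 to 0.40, limma adjusted p = 0.524), so that at gene level it did not separate the groups, which does not test the deletion itself, and directions are given by the labels. The MuSC markers were present throughout (Pax7 between 10363 and 13007), with sums over 8 markers of 41379 to 41871 in controls and 38490 to 42847 in Taf4asKO libraries, and of these Myf5, Cdh15 and Itga7 were called lower and Vcam1 higher. Summed markers of other cells were, for 12 fibro-adipogenic genes, 73185 to 117471 against 68183 to 102787, for 8 endothelial genes 260 to 620 against 644 to 1149, for 6 Schwann cell genes 1519 to 3390 against 3673 to 4496, and for 7 mural genes 25298 to 30074 against 25859 to 30467. The fibro-adipogenic and mural sums rest on a few abundant genes. Of the 12 fibro-adipogenic markers, Cd34, Col3a1 and Dpt were called lower and Gsn higher, and the median log2 fold change was 0.79 with 9 of 12 positive. With the replicate block, 7 of the 12 fibro-adipogenic, 4 of the 8 endothelial and 5 of the 7 mural markers were called higher, against 9.09% of all genes tested in that fit. In the same fit 3 fibro-adipogenic, 0 endothelial and 0 mural markers were called lower, against 8.98%. Of the mural markers Rgs5 and Myh11 were called higher (median 0.69), and of the 6 Schwann cell markers 4 were higher and 1 lower, against 5.93% and 6.71% of all genes tested. Of 10 immune markers, 7 were not rows of the table, and the other 3 summed to 422 to 538 against 666 to 924. The 8 myofiber genes summed to 1329 to 4512 against 2620 to 3273. Of the surface markers used for exclusion in the sort, Ly6a (SCA1) lay between 2 and 14 in every library, Pecam1 (CD31) was at 31, 86 and 64 in control and 77, 80 and 142 in Taf4asKO libraries (log2 fold change 0.77, limma adjusted p = 0.199), and Ptprc (CD45) was not a row of the table. A fit below uses the mean of the fibro-adipogenic markers as a covariate, but these markers moved in opposite directions, and it covers no other cell type. The part of other cells in the results below was therefore not tested. In bulk RNA fewer cells of a type cannot be told apart from less RNA per cell.

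The p53 target genes leaned towards a higher level in Taf4asKO MuSCs. Cdkn1a, Trp53inp1, Rrm2b, Ccng1, Btg2, Plk2, Phlda3, Polk, Zmat3 and Eda2r rose, while Trp63 and Pvt1 fell and Trp53 itself did not pass the test. A gene was called with a Benjamini-Hochberg adjusted p under 0.05 over all genes tested and a fold change of at least 1.3. Of the 34 genes, 10 were called higher (29.4%) and 2 lower (5.88%), against 5.93% and 6.71% of all genes tested. The median log2 fold change was 0.30 over the 34 genes and 0.004 over all genes tested, and 26 of the 34 fold changes were positive. The control and Taf4asKO libraries did not overlap for 16 genes that were higher and 5 that were lower, against 16.6% and 16.4% of all genes tested. With the replicate number as a block, 13 were higher and 4 lower, against 9.09% and 8.98% of all genes tested in that fit, so that the share of lower calls was near that of all genes. With the mean log2 level of the fibro-adipogenic markers as a covariate, 12 were higher and 2 lower, against 6.25% and 6.63% of all genes tested in that fit. The study's methods call their replicates biological, but the animals behind each library are not given, so the p-values measure only the spread between these libraries, which may be in part technical.

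**Figure D1:**
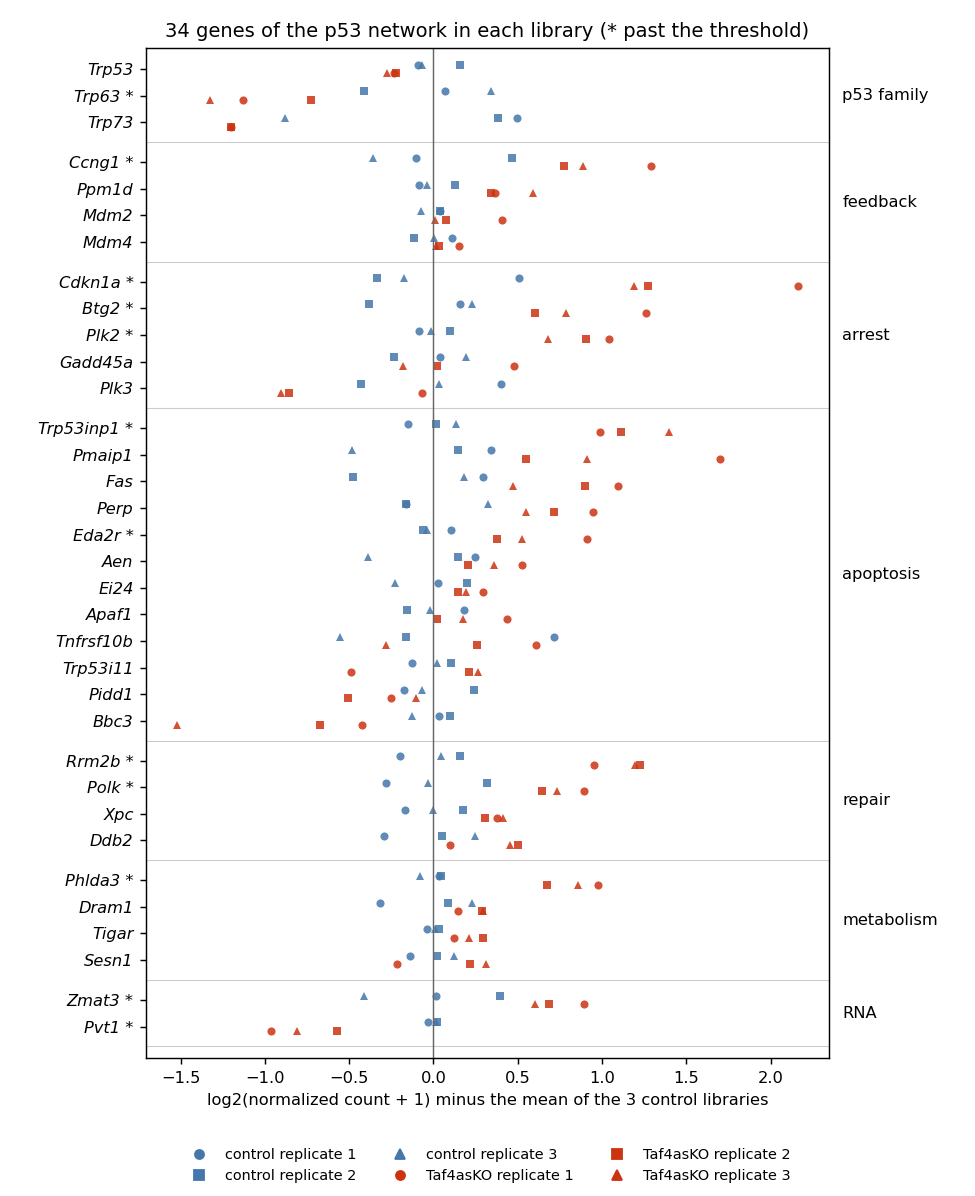
Level of each of the 34 genes in every library, as log2(normalized count + 1) minus the mean of the 3 control libraries, grouped by role. Each point is a library (blue, control; red, Taf4asKO; circle, square and triangle, replicates 1, 2 and 3), and an asterisk marks the 12 called genes. The red points of the 10 genes called higher lie to the right of all blue points, and those of Trp63 and Pvt1 to the left.

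**Figure D2:**
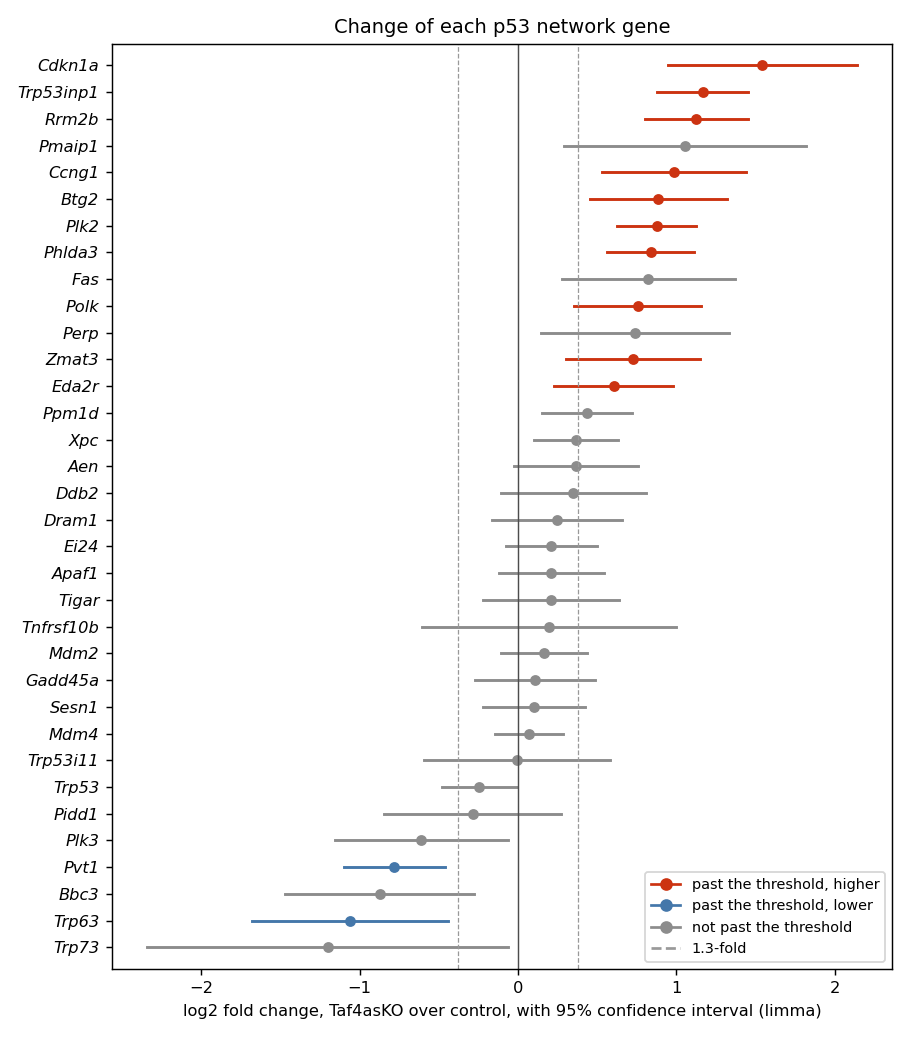
Log2 fold change of each of the 34 genes (Taf4asKO over control) with its 95% confidence interval from limma, ordered by size. Red and blue mark genes called higher and lower, grey those not called, and dashed lines the 1.3-fold limit. Cdkn1a is at the top with 1.54 and Trp73, which was not called, at the bottom with -1.20.

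The cell cycle group held the largest change. Cdkn1a encodes p21, the inhibitor of cyclin-dependent kinases through which p53 arrests the cell cycle. As that of the called gene with the largest fold change in its role, its promoter is printed here. Of the 34 genes, 24 matched RefSeq windows that run from 250 bases before to 50 bases after a start site (GRCm38.p6, which is mm10). Capitals mark every match to CCAAT or TATAAA on either strand, to a single 10-base p53 motif without mismatch, or to a pair of them without spacer in which at most 3 of 20 bases deviate and the invariant C and G of each are kept.

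Cdkn1a promoter, chr17:29090729-29091028 (+): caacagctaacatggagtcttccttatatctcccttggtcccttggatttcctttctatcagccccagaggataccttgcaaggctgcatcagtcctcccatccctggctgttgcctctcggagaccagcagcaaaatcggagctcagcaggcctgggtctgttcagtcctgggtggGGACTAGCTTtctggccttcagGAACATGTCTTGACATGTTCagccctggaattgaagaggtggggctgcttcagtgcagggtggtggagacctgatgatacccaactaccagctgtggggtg

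The paired motif of Cdkn1a began 51 bases before the start site, outside any annotated gene, and deviated at 1 base. The window of a downstream start site of Cdkn1a, shown next, held no match to these motifs.

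Cdkn1a promoter, chr17:29093519-29093818 (+): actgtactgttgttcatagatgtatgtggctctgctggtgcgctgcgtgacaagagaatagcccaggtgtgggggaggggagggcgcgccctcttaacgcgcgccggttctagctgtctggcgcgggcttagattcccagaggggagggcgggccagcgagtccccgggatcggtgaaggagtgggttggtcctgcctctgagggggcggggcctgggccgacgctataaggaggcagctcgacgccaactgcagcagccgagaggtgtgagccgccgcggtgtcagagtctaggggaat

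Cdkn1a (ENSMUSG00000023067, chr17:29090979-29100722, plus strand) was measured at 1058, 589 and 660 normalized counts in the control libraries and at 3330, 1797 and 1700 in the Taf4asKO libraries. Every Taf4asKO library was above every control library, and replicate 1 was the highest of both groups. The mean went from 769 ± 252.8 to 2276 ± 914.4 (SD, n = 3), which is 1.54 on the log2 scale (SE 0.27, adjusted p = 0.00553 in limma). On its opposite strand, 273 bases of Cdkn1a exons overlapped the exons of AC167363.2, and the use of the strand in counting was not found in the sources used here.

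Btg2 and Plk2 rose as well. Btg2 restrains proliferation and recruits a deadenylase to mRNAs, and it was the most abundant of the 34 genes, with 3260 normalized counts per kb of exon in controls, at the 99.7th percentile of all genes tested. It was measured at 9803, 6761 and 10296 in control and 21106, 13391 and 15191 in Taf4asKO libraries, without overlap, for a log2 fold change of 0.88 (SE 0.19 and adjusted p = 0.0162 by limma). Without Taf4asKO replicate 1, its log2 fold change was 0.70 and the adjusted p 0.0585. Plk2, a polo-like kinase of the stress response, had 1077, 1223 and 1130 normalized counts in the control libraries and 2347, 2142 and 1832 in Taf4asKO libraries. Its log2 fold change was 0.88 (SE 0.11 and adjusted p = 0.00126 by limma), and it stayed called without any single library.

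The other arrest genes were not called higher. Gadd45a, whose product binds Cdk1 and PCNA, had 835 ± 121.4 normalized counts in the control libraries and 909.7 ± 220.9 in Taf4asKO libraries (log2 fold change 0.11, 95% confidence interval -0.27 to 0.49, limma adjusted p = 0.728). Plk3, a kinase related to Plk2, was measured at 1157, 650 and 897 in control and 835, 484 and 469 in Taf4asKO libraries. The groups overlapped for Plk3, but each Taf4asKO library was below the control library of its number, and replicate 1 was the highest in both groups. Its log2 fold change was -0.61 (limma adjusted p = 0.133), and with the replicate block it was called lower (adjusted p = 0.00488). Among these 5 genes, 3 were called higher and 0 lower, against 5.93% and 6.71% of all genes tested, and the median log2 fold change was 0.88. At an unadjusted p under 0.05 in limma, 3 were higher and 1 lower, against 14.6% and 14.2% of all genes. With the replicate block 3 were called higher and 1 lower, against 9.09% and 8.98% of all genes.

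Of the 3 genes of the p53 family itself, 1 was called lower and 0 higher, against 6.71% and 5.93% of all genes tested. Trp53 (ENSMUSG00000059552, chr11:69580359-69591873, plus strand) was measured at 742, 881 and 753 normalized counts in the control libraries and at 672, 677 and 651 in Taf4asKO libraries. All 3 Taf4asKO values were below the lowest control value, but the difference was small, with means of 792 ± 77.3 and 666.7 ± 13.8 and a log2 fold change of -0.24 (SE 0.11, 95% confidence interval -0.48 to -0.01, limma adjusted p = 0.159). Trp63, which encodes p63, a regulator of stratified epithelia that shares DNA motifs with p53, had 70, 50 and 85 normalized counts in the control libraries and 30, 40 and 26 in Taf4asKO libraries. It fell, with a log2 fold change of -1.06 (SE 0.28 and adjusted p = 0.0329 by limma), from a low level of 8.14 to 3.81 normalized counts per kb. This call rested on small values and was lost without control replicate 1, control replicate 3 or any Taf4asKO replicate (log2 fold change -1.23 to -0.89, adjusted p 0.0584 to 0.135). Trp73, which encodes p73, was at 12, 11 and 4 in control and at 3 in each Taf4asKO library, too few counts for a call (adjusted p = 0.152), and 280 bases of its exons overlapped its antisense transcript Trp73os.

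Of the 4 feedback regulators, which limit p53 after its activation, 1 was called higher (25%) and 0 lower, against 5.93% and 6.71% of all genes tested. With the replicate block 2 were called higher and 0 lower, against 9.09% and 8.98% of all genes. In the fit without the block Ccng1 alone was called. Ccng1 encodes cyclin G1, which brings a phosphatase to Mdm2, and its promoter is shown by the same rule and marked as above. It held a paired p53 motif with a deviation at 1 base, beginning 195 bases before the start site, outside any annotated gene.

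Ccng1 promoter, chr11:40755237-40755536 (-): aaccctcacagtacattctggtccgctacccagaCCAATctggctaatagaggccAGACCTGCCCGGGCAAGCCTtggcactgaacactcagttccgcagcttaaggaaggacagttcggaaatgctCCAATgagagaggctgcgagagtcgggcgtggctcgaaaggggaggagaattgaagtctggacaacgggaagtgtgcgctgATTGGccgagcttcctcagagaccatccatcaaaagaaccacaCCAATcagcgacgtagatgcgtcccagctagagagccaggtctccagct

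The window held CCAAT, read on either strand, 4 times. Ccng1 (chr11:40748552-40755311, minus strand) had 432, 642 and 362 normalized counts in the control libraries and 1137, 796 and 862 in Taf4asKO libraries. The groups did not overlap, and the means were 478.7 ± 145.7 and 931.7 ± 180.9 (log2 fold change 0.98, SE 0.21, adjusted p = 0.0127 by limma). Without Taf4asKO replicate 1, the highest library, the log2 fold change was 0.83 and the adjusted p 0.0607.

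Mdm2 and Mdm4, the main inhibitors of p53, did not pass the test. Mdm2 was measured at 789, 789 and 730 in control and 1020, 811 and 775 in Taf4asKO libraries, and only Taf4asKO replicate 1 stood clearly above the controls (log2 fold change 0.17, 95% confidence interval -0.11 to 0.44, limma adjusted p = 0.405). Mdm4 had a log2 fold change of 0.07 with an interval of -0.15 to 0.28. Ppm1d encodes the phosphatase Wip1, which dephosphorylates p53 and the kinases that activate it. It was measured at 249, 289 and 258 in control and 342, 336 and 399 in Taf4asKO libraries, all above the controls, and narrowly missed the threshold (log2 fold change 0.43, SE 0.13, adjusted p = 0.0507 by limma), which it passed with the replicate block (adjusted p = 0.0356).

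Paired p53 motifs were found in the windows of 8 genes, and 4 of them are printed here, chosen after their values were seen, since genes with and without a called change held one. Here capitals mark bases that match the motif and lower case those that deviate.

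Cdkn1a, chr17:29090928-29090947 (+): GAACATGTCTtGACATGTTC
Ccng1, chr11:40755462-40755481 (-): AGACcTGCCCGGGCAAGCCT
Bbc3, chr7:16309486-16309505 (+): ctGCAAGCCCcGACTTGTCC
Trp53, chr11:69580284-69580303 (+): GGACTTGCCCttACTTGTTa

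The motifs of Cdkn1a and Ccng1, which rose, deviated at 1 base each, and those of Bbc3 and Trp53, which were not called, at 3 bases each. The other 4 genes were Trp73 with 2 deviating bases and Aen, Sesn1 and Tigar with 3 each, and none of these 4 was called. Btg2, Plk2, Eda2r, Polk and Phlda3, which were called higher, had windows without a paired motif. The motif of Aen lay in an exon within its UTR, that of Tigar in an exon of Platr31, and that of Trp73 in its gene and in an exon of Trp73os. Of the 32 windows of these genes, 28.1% held a paired motif and 34.4% a single motif without mismatch, against 1.46% and 7.16% of the 14727 windows of genes tested; the genes were chosen as p53 targets, so this describes the choice. CCAAT was in 43.8% of their windows and in 37.0% of the windows of genes tested, and TATAAA in 6.25% and 7.41%. Over all 32851 windows the shares were 1.38% for the paired motif, 8.36% for the single motif, 37.4% for CCAAT and 13.6% for TATAAA. A match is a run of letters and not a measured binding site. No window was held for Trp63, Pmaip1, Tnfrsf10b, Perp, Trp53inp1, Ddb2, Xpc, Rrm2b, Zmat3 or Pvt1.

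Of 12 apoptosis genes, 2 were called higher and 0 lower in the fit without the replicate block, against 5.93% and 6.71% of all genes tested. At an unadjusted p under 0.05 in limma, 5 were higher and 1 lower, against 14.6% and 14.2% of all genes. With the block 4 were higher and 1 lower, against 9.09% and 8.98%. Trp53inp1, whose product is induced by stress, modifies the activity of p53 and takes part in autophagy, gave the smallest adjusted p of the 34 genes. It was measured at 563, 634 and 688 in control and at 1242, 1357 and 1651 in Taf4asKO libraries, without overlap and with replicate 3 the highest of both groups. Its mean went from 628.3 ± 62.7 to 1417 ± 210.9 (log2 fold change 1.17, SE 0.13, adjusted p = 0.000613 by limma). Eda2r, a receptor for ectodysplasin of the tumour necrosis factor family, had 148, 132 and 134 normalized counts in the control libraries and 260, 179 and 199 in Taf4asKO libraries (log2 fold change 0.60, SE 0.17, adjusted p = 0.0421 by limma). This call was narrow and was lost without any of the 6 libraries (log2 fold change 0.45 to 0.72, adjusted p 0.0571 to 0.149), as well as with upper-quartile scaling (adjusted p = 0.0559), total-count scaling (0.0622) and adjustment for GC content and exon length (0.111).

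The BH3-only genes Bbc3 and Pmaip1, the classical p53 targets that trigger apoptosis at mitochondria, leaned in opposite directions. Bbc3, which encodes Puma, was measured at 131, 137 and 117 in control and at 95, 80 and 44 in Taf4asKO libraries. No Taf4asKO library reached the controls, and the log2 fold change was -0.87 (SE 0.27 and adjusted p = 0.0585 by limma). Bbc3 was called lower with the replicate block (adjusted p = 0.0149) and with upper-quartile scaling (0.0493). Pmaip1, which encodes Noxa, had 38, 33 and 21 normalized counts in the control libraries and 99, 44 and 57 in Taf4asKO libraries. The groups were again apart, but Taf4asKO replicate 1 was far above the other two. The log2 fold change of 1.05 (SE 0.34) had a limma adjusted p of 0.0717. Pmaip1 was called higher with the block (adjusted p = 0.022) and with the fibro-adipogenic covariate (0.0215). The difference between Bbc3 and Pmaip1 was not tested.

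Among the death receptors, Fas had 96, 56 and 89 normalized counts in the control libraries and 168, 147 and 109 in Taf4asKO libraries. The groups did not overlap (log2 fold change 0.82, SE 0.25), and Fas missed the threshold (limma adjusted p = 0.0539) but passed it with the replicate block (adjusted p = 0.0218), with the fibro-adipogenic covariate (0.038), with robust variances (0.0486) and without control replicate 1 (0.0448). Tnfrsf10b, the receptor for Trail, overlapped between groups, with 28 to 69 in control and 34 to 64 in Taf4asKO libraries. Perp, a membrane protein of desmosomes, was low at 24 to 34 in control and 40 to 53 in Taf4asKO libraries and was not called (log2 fold change 0.74, limma adjusted p = 0.098). The executing and sensing genes Apaf1 (0.21), Ei24 (0.21), Aen (0.36), Pidd1 (-0.29) and Trp53i11 (-0.01), with their log2 fold changes, were not called in any setting. Apaf1 forms the apoptosome, Pidd1 a caspase-activating platform, and Aen is a nuclease.

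In the DNA repair group, 2 of 4 genes rose, against 5.93% of all genes tested, and the median log2 fold change was 0.56. Rrm2b encodes the p53-inducible small subunit of ribonucleotide reductase, which supplies nucleotides for repair in cells that do not divide. It had 141, 181 and 167 normalized counts in the control libraries and 315, 380 and 373 in Taf4asKO libraries. Every Taf4asKO library was well above the controls, and the mean went from 163 ± 20.3 to 356 ± 35.7 (log2 fold change 1.13, SE 0.15, adjusted p = 0.00134 by limma). Its exons shared 734 bases with Gm49085 on the opposite strand. Polk, a polymerase that copies past damaged bases, had 100, 152 and 119 in control and 227, 191 and 203 in Taf4asKO libraries (log2 fold change 0.76, SE 0.18, adjusted p = 0.0224 by limma). The call of Polk was lost without any library except control replicate 2 (log2 fold change 0.62 to 0.81, adjusted p 0.0508 to 0.0929).

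Xpc and Ddb2 recognize ultraviolet damage for nucleotide excision repair. Xpc was at 374, 475 and 420 in control and at 548, 521 and 561 in Taf4asKO libraries, which did not overlap, but its log2 fold change of 0.37 lay under the 1.3-fold limit and its limma adjusted p was 0.0712. Ddb2 had a log2 fold change of 0.35 (95% confidence interval -0.11 to 0.81, limma adjusted p = 0.292), and 652 bases of its exons overlapped Acp2.

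Of the 4 genes of metabolism and survival signalling, 1 was called higher (25%) and 0 lower, against 5.93% and 6.71% of all genes tested. The gene that rose was Phlda3. It encodes a small lipid-binding protein that competes with the kinase Akt at the membrane, and its promoter is shown by the same rule. It held none of the motifs searched, so that it has no capitals.

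Phlda3 promoter, chr1:135765835-135766134 (+): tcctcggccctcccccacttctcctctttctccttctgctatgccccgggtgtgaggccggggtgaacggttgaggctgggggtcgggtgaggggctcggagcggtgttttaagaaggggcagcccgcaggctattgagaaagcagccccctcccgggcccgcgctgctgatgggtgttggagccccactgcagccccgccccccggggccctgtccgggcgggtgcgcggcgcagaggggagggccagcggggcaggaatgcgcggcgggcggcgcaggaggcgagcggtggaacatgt

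Phlda3 (chr1:135766119-135769136, plus strand) was measured at 263, 266 and 244 in control and at 508, 412 and 468 in Taf4asKO libraries. Its control values were among the tightest of the 34 genes, and the means of 257.7 ± 11.9 and 462.7 ± 48.2 gave a log2 fold change of 0.84 (SE 0.12 and adjusted p = 0.00253 by limma). Sesn1, a sestrin that restrains the growth kinase complex mTORC1, had a log2 fold change of 0.10 (95% confidence interval -0.22 to 0.42). Tigar, a phosphatase that lowers glycolysis, had 57 to 60 normalized counts in the control libraries and 64 to 72 in Taf4asKO libraries, apart but close (0.21 on the log2 scale, limma adjusted p = 0.517). Dram1, a lysosomal protein of autophagy, overlapped between groups (0.24, adjusted p = 0.421).

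The RNA-related genes moved apart. Zmat3, a zinc finger protein that binds RNA and alters splicing, had 287, 374 and 213 normalized counts in the control libraries and 527, 457 and 431 in Taf4asKO libraries (log2 fold change 0.73, SE 0.19, adjusted p = 0.0324 by limma), and was not called without any library except control replicate 2 (0.52 to 0.79, adjusted p 0.0619 to 0.121). Pvt1 (ENSMUSG00000097039, chr15:62038047-62378096, plus strand) is a long non-coding RNA next to Myc with a p53-responsive isoform. It was measured at 266, 276 and 275 in control and at 139, 183 and 155 in Taf4asKO libraries. The controls were nearly equal and all Taf4asKO libraries lay below them, so that Pvt1 fell with a log2 fold change of -0.78 (SE 0.14 and adjusted p = 0.00719 by limma). The value sums the exons of all isoforms, 109 bases overlapped H2afy3 on the opposite strand, and 341 bases were shared with Gm27718, Gm27913 and Gm27957 on the same strand, where reads that overlap several genes were left out of the counts.

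**Figure D3:**
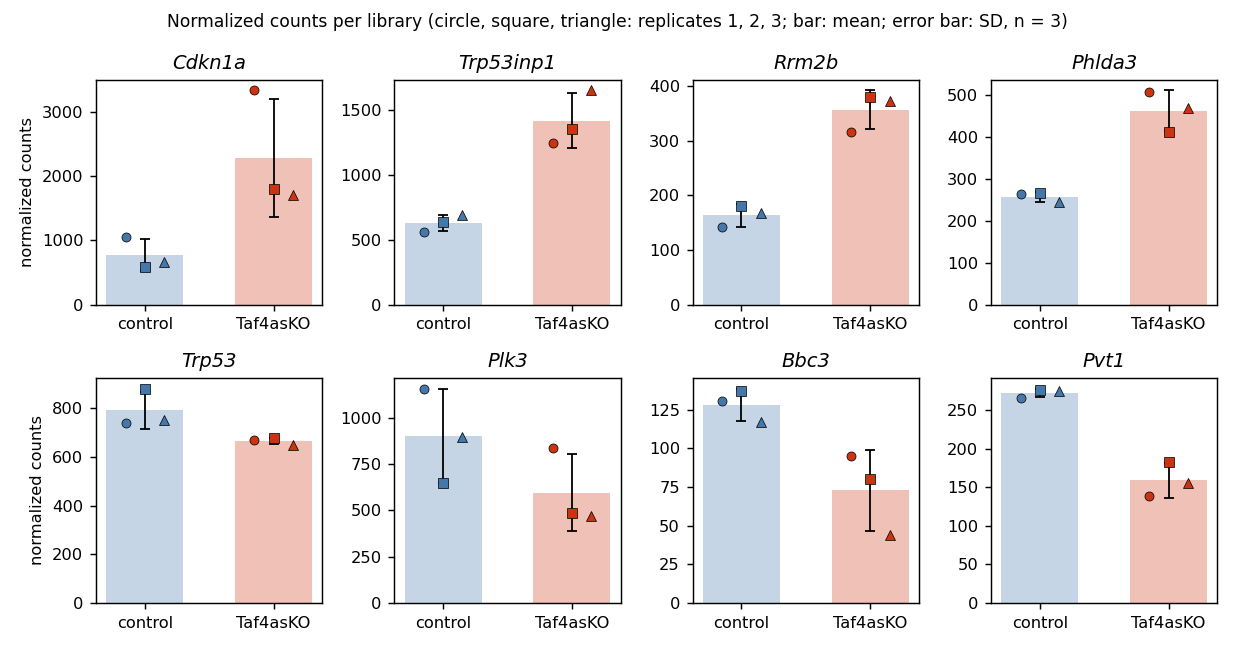
Normalized counts of 8 genes in each library (points), with bars for group means from 0 and error bars for the SD (n = 3). Cdkn1a, Trp53inp1, Rrm2b and Phlda3 rose without overlap of the groups, Pvt1 fell, Trp53 and Bbc3 were lower without being called, and Plk3 overlapped between groups.

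The size of the rise differed between libraries. Over the 10 genes called higher, the median log2 level over the control mean was 0.98 in Taf4asKO replicate 1, 0.73 in replicate 2 and 0.82 in replicate 3, and replicate 1 was the highest Taf4asKO library for 8 of the 10. Summed over all genes of the group except Btg2, the control libraries held 13193, 12686 and 12475 normalized counts and the Taf4asKO libraries 19663, 16441 and 16376. Without Taf4asKO replicate 1, 5 of the genes were called higher, while 484 instead of 1101 genes were called higher over the whole table. Cdkn1a, Plk2, Trp53inp1, Rrm2b, Phlda3 and Pvt1 kept their calls whichever library was left out. Without an intensity trend in limma, Cdkn1a lost its call (adjusted p = 0.0609), as did Ccng1, Btg2, Eda2r, Polk and Zmat3.

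Immediate early genes, which respond within minutes to stimuli such as cell isolation, were highest in the same library. Of 20 such genes, 10 were called higher, against 5.93% of all genes tested, and 2 lower, against 6.71% (Hspa1a at -1.52 and Hspa1b at -1.62 on the log2 scale), with Dusp1 (0.96, limma adjusted p = 0.000998), Junb (0.91, 0.00191) and Ier2 (0.61, 0.00299) leading. With the replicate block, where the shares of all genes were 9.09% and 8.98%, 13 of the 20 were called higher and 2 lower. Their sum was 329697, 280957 and 328252 in control and 544855, 428595 and 415769 in Taf4asKO libraries, and Taf4asKO replicate 1 was the highest of its group for 19 of the 20. Replicate 1 was highest in both groups for 26.5% of the p53 network genes, 40.0% of the immediate early genes and 14.4% of all genes tested. With the mean log2 level of the immediate early genes as a covariate, 3 of the 10 genes called higher stayed so (Plk2, Trp53inp1 and Rrm2b), and 1 gene was lower, while 551 instead of 2347 genes were called over the whole table (1.09% higher and 1.87% lower). In that fit the log2 fold change was 1.34 for Trp53inp1 and Rrm2b and 0.75 for Plk2, and of the genes that lost the call it was 0.91 for Ccng1, 0.86 for Cdkn1a, 0.75 for Polk, 0.75 for Zmat3, 0.74 for Phlda3, 0.39 for Btg2 and 0.31 for Eda2r. The median over the 34 genes was 0.36, and Plk3 was called lower at -1.27. Neither Trp63 (-1.20, adjusted p = 0.148 by limma) nor Pvt1 (-0.62, adjusted p = 0.136) was called there. Since the covariate itself differs between the groups, the part of cell isolation and that of the deletion cannot be told apart.

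**Figure D4:**
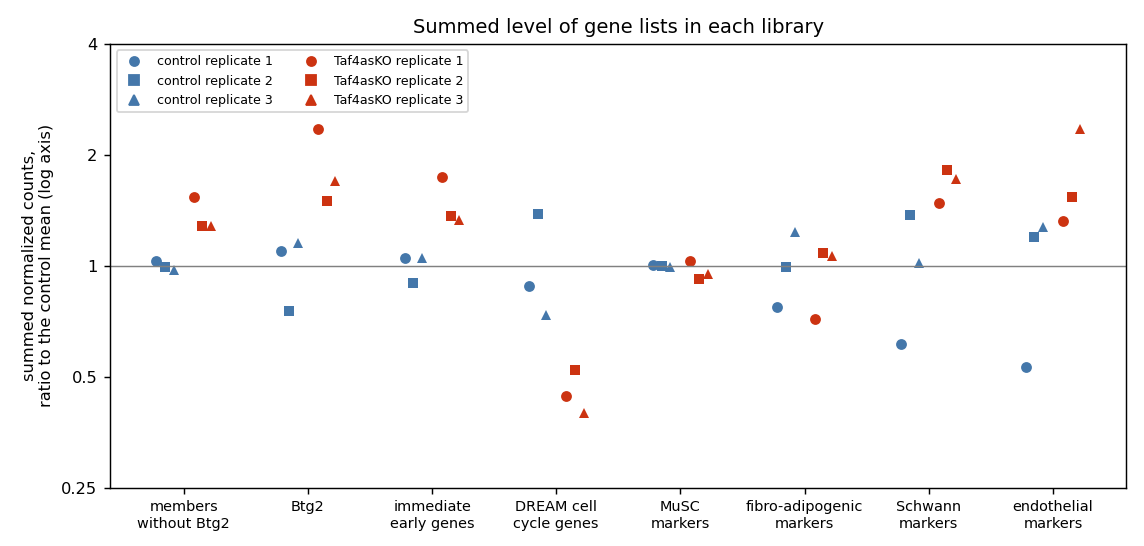
Summed normalized counts of gene groups in each library as a ratio to the control mean, on a log axis (blue, control; red, Taf4asKO; shapes, replicates). The p53 network genes, Btg2, the immediate early genes and the Schwann cell and endothelial markers were higher in every Taf4asKO library than in every control library, the DREAM cell cycle genes were lower, and the sums of MuSC and fibro-adipogenic markers overlapped, although single markers within them were called in either direction.

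Other p53 targets gave a similar picture. Of 36 further genes reported as p53 targets, chosen by symbol, 35 were in the table, 6 were called higher and 1 lower, against 5.93% and 6.71% of all genes tested, and the median log2 fold change was 0.28. With the replicate block, 11 were higher and 1 lower, against 9.09% and 8.98% of all genes. The smallest p-values in the higher direction were those of Slc19a2, a thiamine transporter (log2 fold change 1.297, limma adjusted p = 0.00119), and Ddit4, an inhibitor of mTORC1 (1.93, 0.00173). Igfbp3, which binds insulin-like growth factors, fell (-1.17, limma adjusted p = 0.0121). The standard targets Bax (-0.06, limma adjusted p = 0.902), Gdf15 (0.30, 0.559) and Sesn2 (0.41, 0.413) were not called. The count of 6 went to 2 without control replicate 1, Taf4asKO replicate 2 or Taf4asKO replicate 3. It was 3 without Taf4asKO replicate 1 and 9 without control replicate 2. Over the whole table, higher calls went from 1101 to 753, 350, 361, 484 and 1607 in these fits, in this order. Igfbp3 was not called without Taf4asKO replicate 3, where lower calls over the whole table went from 1246 to 595.

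Upstream of p53, 30 of 32 listed symbols of kinases, ubiquitin ligases, cofactors and ribosomal proteins were in the table. Cop1, which was absent, is another symbol of Rfwd2, which was present. Of the 30, 2 were called higher (6.67%, against 5.93% of all genes tested) and 8 lower (26.7%, against 6.71%), with a median log2 fold change of -0.08. The share that rose was near that of all genes. The genes that rose were those of the DNA damage kinases Prkdc (0.87, limma adjusted p = 0.0011) and Atm (0.51, 0.0163). Those that fell with the smallest p-values were Rpl5, a ribosomal protein that binds Mdm2 (-0.77), Trp53bp1, a damage response mediator (-0.52), and Hipk2, a kinase of p53 (-0.69).

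Downstream of Cdkn1a, p53 lowers cell cycle genes through the DREAM complex of retinoblastoma-related proteins. Of 28 such genes, 13 were called lower (46.4%, against 6.71% of all genes tested) and none higher (against 5.93%). With the replicate block 18 were called lower and 0 higher, against 8.98% and 9.09% of all genes. At an unadjusted p under 0.05 in limma, 21 were lower and 0 higher, against 14.2% and 14.6% of all genes tested. Their median log2 fold change was -1.10, with E2f2 (-2.05, limma adjusted p = 0.00016), Mki67 (-2.15, 0.00602) and Mcm6 (-0.89, 0.00744) showing the smallest p-values. Summed, they had 4678, 7372 and 3907 normalized counts in the control libraries and 2361, 2767 and 2116 in Taf4asKO libraries. Control replicate 2 was the highest control for 24 of the 28 genes. The part of p53 or Cdkn1a in these lower levels was not tested.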

How the data were processed

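RNA-seq of sorted MuSCs was analysed in 3 control and 3 Taf4asKO libraries, grouped by their GEO labels. According to the study's methods, reads were trimmed with Trimmomatic 0.39, aligned to mm10 with STAR 2.6.0c without multi-mapping reads, counted over exons with featureCounts 1.6.0 and normalized with DESeq2 1.14.1. The deposited values are a score: as inferred from the values and the named tool, the authors divided each library's counts by a size factor and rounded the result, so raw reads were not at hand and a count model was not used. They are called normalized counts. Use of the strand in counting is not given in the sources used here, so a value is uncertain where exons of both strands overlap. The table held 0 value columns without a sample. Depth limits precision most for genes of low value, such as Trp73.

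Genes with a mean of at least 5 were tested with limma 3.58.1 (R 4.3.3; intensity trend, two-sided) on log2(value + 1), without covariates, with Benjamini-Hochberg adjustment over all 18562 genes; calls needed an adjusted p under 0.05 and a 1.3-fold change, limits taken from the study's methods. On this scale fold changes of low genes are understated. The script was tested on simulated data. Levels per kb used exon lengths of GENCODE M21, which held 99.8% of the gene identifiers; promoters came from RefSeq (GRCm38.p6). The replicate numbers in the titles pair the samples by correlation only: deviations from the group means of same-numbered libraries correlated at 0.235, 0.126 and 0.15 over genes, and -0.0847 on average for other pairs, and the study describes littermate controls but not which libraries came from littermates. Alternatives were a replicate block, another pseudocount (0.1), filters (none, 20), 3 scalings, 2 variance models, other limits, covariates of fibro-adipogenic and immediate early genes, adjustment for GC content and exon length, and leaving out each library.

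The 34 genes, the other lists (upstream regulators, other p53 targets, DREAM, immediate early and cell type marker genes) and the tests were chosen with earlier results of these data known. All 34 genes are named. Of the other lists, at most the 3 genes with the smallest p among those called in each direction are named, plus genes whose value bears on a result, and 1 gene that the rule names is not reported here; Bax, Gdf15 and Sesn2 were named as standard targets after their values were seen. Promoters were taken for the called gene with the largest fold change in each role.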

Additional observations from a re-analysis of the deposited data

How the results depend on the processing

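Of 746 values of the 34 genes over 22 alternatives, 648 kept their direction and side of the threshold, 56 dropped below it, 24 passed it and 18 turned direction. Trp53inp1 and Rrm2b were called in all 22. The median log2 fold change ranged from 0.25 to 0.36. The 10 genes called higher became 4 without an intensity trend, 3 with a fold limit of 2, 5 at an adjusted p under 0.01 and 3 with the immediate early covariate. They became 5 to 11 when a library was left out (5 without Taf4asKO replicate 1). Over the whole table, 1101 genes were called higher, and 337, 330, 331 and 203 in those 4 settings. Without a library that number was 350 to 1607 (484 without Taf4asKO replicate 1). In place of 2, 1 gene was called lower in each of those 4 settings. It was Pvt1 without a trend and at 0.01, Trp63 at a fold limit of 2, and Plk3, with neither of the 2, under the covariate. Called lower were also 4 genes with the replicate block, with or without the adjustment for GC content and exon length. Upper-quartile scaling gave 3, adding Bbc3. Without a library 1 to 2 were called (1 without control replicate 1 or 3, or Taf4asKO replicate 2 or 3). Over the whole table, 1246 genes were called lower, and 604, 520, 545 and 348 in those 4 settings. The block gave 1667, or 1582 with the adjustment, upper-quartile scaling 1422, and fits without a library 595 to 1489. The 6 other p53 targets called higher became 11 with the paired fit (replicate block), where 1688 genes were called higher over the whole table. They became 2 in each of the 4 settings, and 2 to 9 without a library, with the calls over the whole table given above. The 1 called lower, Igfbp3, became 0 without a trend, at an adjusted p under 0.01 and with the immediate early covariate, where limma gave 2, 1 and 2 other targets lower at an unadjusted p under 0.05, and 0 to 1 without a library. The cause was not tested. The block changed no other call of the 34 genes than those given above.

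Genes that were not called turned direction as follows, in log2 fold change. With the immediate early covariate Mdm2 was at -0.042, Mdm4 at -0.052, Gadd45a at -0.35, Tnfrsf10b at -0.22, Apaf1 at -0.048 and Trp53i11 at 0.48. Adjusted for GC content and exon length, with or without the block, Mdm4 was at -0.04 and Trp53i11 at 0.089. Without a library, Gadd45a ranged from -0.08 to 0.25, Tnfrsf10b from -0.081 to 0.56, Trp53i11 from -0.14 to 0.24 and Sesn1 from -0.001 to 0.26.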
